A study of Mus musculus with 12 samples.

Results

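The complement system was represented by 9 genes, which encode the chains of its first component, its central proteins, 2 alternative pathway proteins and the receptors of its small fragments. They were chosen by name: C1qa, C1qb, C1qc, C3, C4b, Cfb, Cfp, C3ar1 and C5ar1. All 9 were found among the 55487 genes of both count tables.

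Complement is a cascade of proteins that marks microbes and dying cells for uptake. C1q, built from the A, B and C chains, binds to a surface and starts the classical pathway, which cleaves C4 and then C3. Factor B forms the C3 convertase of the alternative pathway and properdin stabilizes it, while the fragments C3a and C5a act on cells through their receptors. The liver supplies most of the complement in plasma, but macrophages are the main source of C1q and properdin is made by leukocytes.

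Libraries came from 2 experiments in cells of C57BL/6 mice, with an age of 8 weeks in the labels. In the first, bone marrow macrophages (BMMs) were grown with M-CSF from the leg bones of female mice after ovariectomy (OVX), which removes the source of ovarian estrogen, or after a sham operation. In the second, mesenchymal stem cells (MSCs), adherent marrow cells purified by passage, were cultured alone (MSC), with RAW264.7 cells (MSC+RAW-TW) or with RAW264.7 cells that had been treated with lipopolysaccharide (MSC+RAW-LPS-TW). RAW264.7 is a mouse macrophage cell line and TW stands for a transwell membrane. The labels say only that the cells were co-cultured. The methods name transwell groups for other assays and not for the RNA-seq, so the membrane is inferred for these libraries. The sham and the MSC groups served as the controls. The methods give 8 weeks as the age at ovariectomy, and how long after it the marrow was taken for these libraries, or how many mice gave the cells of each, is not given in the sources used here.

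The 12 libraries held 17012923 to 45367105 counts. In 2 pairs of libraries of one group, sham replicates 2 and 3 and both MSC+RAW-TW libraries, the chi-square between the counts stayed near its level at low counts. Its ratio to the value expected from sampling was 2.50 and 3.07 below 100 counts and 2.70 and 3.18 from 1000 counts, against 15.1 to 75.5 from 1000 counts in the other pairs. As a median over genes, these pairs differed by little more than sampling noise, while single genes could differ more. Each pair was counted as 1 sample, which left n = 3 for OVX, n = 2 for sham, MSC and MSC+RAW-LPS-TW, and n = 1 for MSC+RAW-TW. Replicates are numbered as in the column headers of the count tables, where the MSC+RAW-LPS-TW libraries are 2 and 3 and both MSC+RAW-TW libraries are 1, and in these groups the columns could be matched to the group but not to a single sample of the labels. The lone MSC+RAW-TW sample was assumed to vary like the other groups. Captions of the study speak of independent experiments, but the labels tie no library to a culture or animal, so p-values measure the spread between these samples, which may be technical.

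Several of the genes are neighbours on the genome (GRCm38, GENCODE M21). C1qb (ENSMUSG00000036905, chr4:136880129-136886187), C1qc (ENSMUSG00000036896, chr4:136889804-136893065) and C1qa (ENSMUSG00000036887, chr4:136895917-136898803) follow each other on the minus strand, with gaps of 3616 and 2851 bp. C4b (ENSMUSG00000073418, chr17:34728380-34743882), its paralog C4a and Cfb (ENSMUSG00000090231, chr17:34856374-34862518) lie in the major histocompatibility complex, and the 3′ end of C2 lies 85 bp beyond Cfb. C3 (ENSMUSG00000024164, chr17:57203970-57228136) is on the same chromosome. C3ar1 (ENSMUSG00000040552) is at chr6:122847138-122856161, C5ar1 (ENSMUSG00000049130) at chr7:16246743-16259540 and Cfp (ENSMUSG00000001128) at chrX:20925454-20931555.

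Promoter sequences are shown for C1qb and C1qc, which fell together in MSC+RAW-LPS-TW, and for C3, which rose there against MSC. They are the stretches upstream of the start annotated by RefSeq on GRCm38.p6 (minus strand, 5′ to 3′), and for C1qc only the bases upstream of the GENCODE start, which lies 151 bp further out. Capitals mark the letters of a motif that was searched: the PU.1 core GAGGAA in C1qb and, on the opposite strand, in C1qc, and a C/EBP motif in C3.
C1qb, chr4:136886201-136886450: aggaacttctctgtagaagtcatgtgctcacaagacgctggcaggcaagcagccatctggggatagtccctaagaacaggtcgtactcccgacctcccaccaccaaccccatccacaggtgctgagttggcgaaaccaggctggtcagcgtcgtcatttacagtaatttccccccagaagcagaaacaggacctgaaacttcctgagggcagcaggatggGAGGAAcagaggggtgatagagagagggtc
C1qc, chr4:136893066-136893164: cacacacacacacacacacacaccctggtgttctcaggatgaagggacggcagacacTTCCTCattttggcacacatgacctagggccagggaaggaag
C3, chr17:57228137-57228386: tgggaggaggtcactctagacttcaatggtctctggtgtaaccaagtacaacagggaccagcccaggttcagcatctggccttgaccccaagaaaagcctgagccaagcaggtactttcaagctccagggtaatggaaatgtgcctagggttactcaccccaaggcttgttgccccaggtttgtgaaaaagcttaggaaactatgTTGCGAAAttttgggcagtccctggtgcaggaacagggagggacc

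A window of 250 bp before and 50 bp after the start was at hand for 6 of the 9 genes, all except C1qa, C4b and Cfb. On either strand, the PU.1 core GAGGAA was found in C1qb, C1qc and Cfp, against 28.3% of the 32851 windows of all genes. The C/EBP letters TTGCNNAA or TTNNGCAA were found only in C3 among the 6 genes, against 10.8% of all windows. A kappaB motif was found only in C1qc, against 8.46% of all windows, in bases that GENCODE gives as exon. The ISRE letters GAAANNGAA were found only in C5ar1, against 8.56%, and the GAS letters TTCNNNGAA in none of the 6, against 8.30%. A match describes the letters and is not a bound site.

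Per kilobase of exon, C1qb was the most abundant of the 9 in sham BMMs, with a mean of 3283 CPM per kb. CPM, counts scaled to the size of each library, were normalized by the TMM method within each experiment, so levels of the 2 experiments are set side by side only as a description. C1qc and C1qa followed at 1373 and 1318 CPM per kb, and their libraries overlapped. Cfp stood at 450.1, C3ar1 at 131.3, C5ar1 at 66.4 and C3 at 63.6 CPM per kb, of which the last 2 overlapped between libraries. C4b was near the bottom at 1.69 CPM per kb. Cfb had almost no counts in BMMs, with 5 counts in sham replicate 1 and 0 in the other 5 libraries. Reads on exon bases that it shares with another gene may be missing from these counts. A count of 0 allows up to 3 counts in a library, and such limits cover counting error only.

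In MSCs cultured alone the order per kilobase began with C1qb at 1124, C1qa at 657.6, Cfp at 504.0 and C1qc at 467.6 CPM per kb. C5ar1 at 106.0, C3ar1 at 91.3 and C3 at 85.1 CPM per kb came next, followed by C4b at 2.65 and Cfb at 0.901. The place of Cfb is uncertain, since most of its exon bases are shared with another gene. The levels of Cfp and C1qc did not differ beyond the spread of their libraries, and neither did those of C3ar1 and C3.

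**Figure D1:**
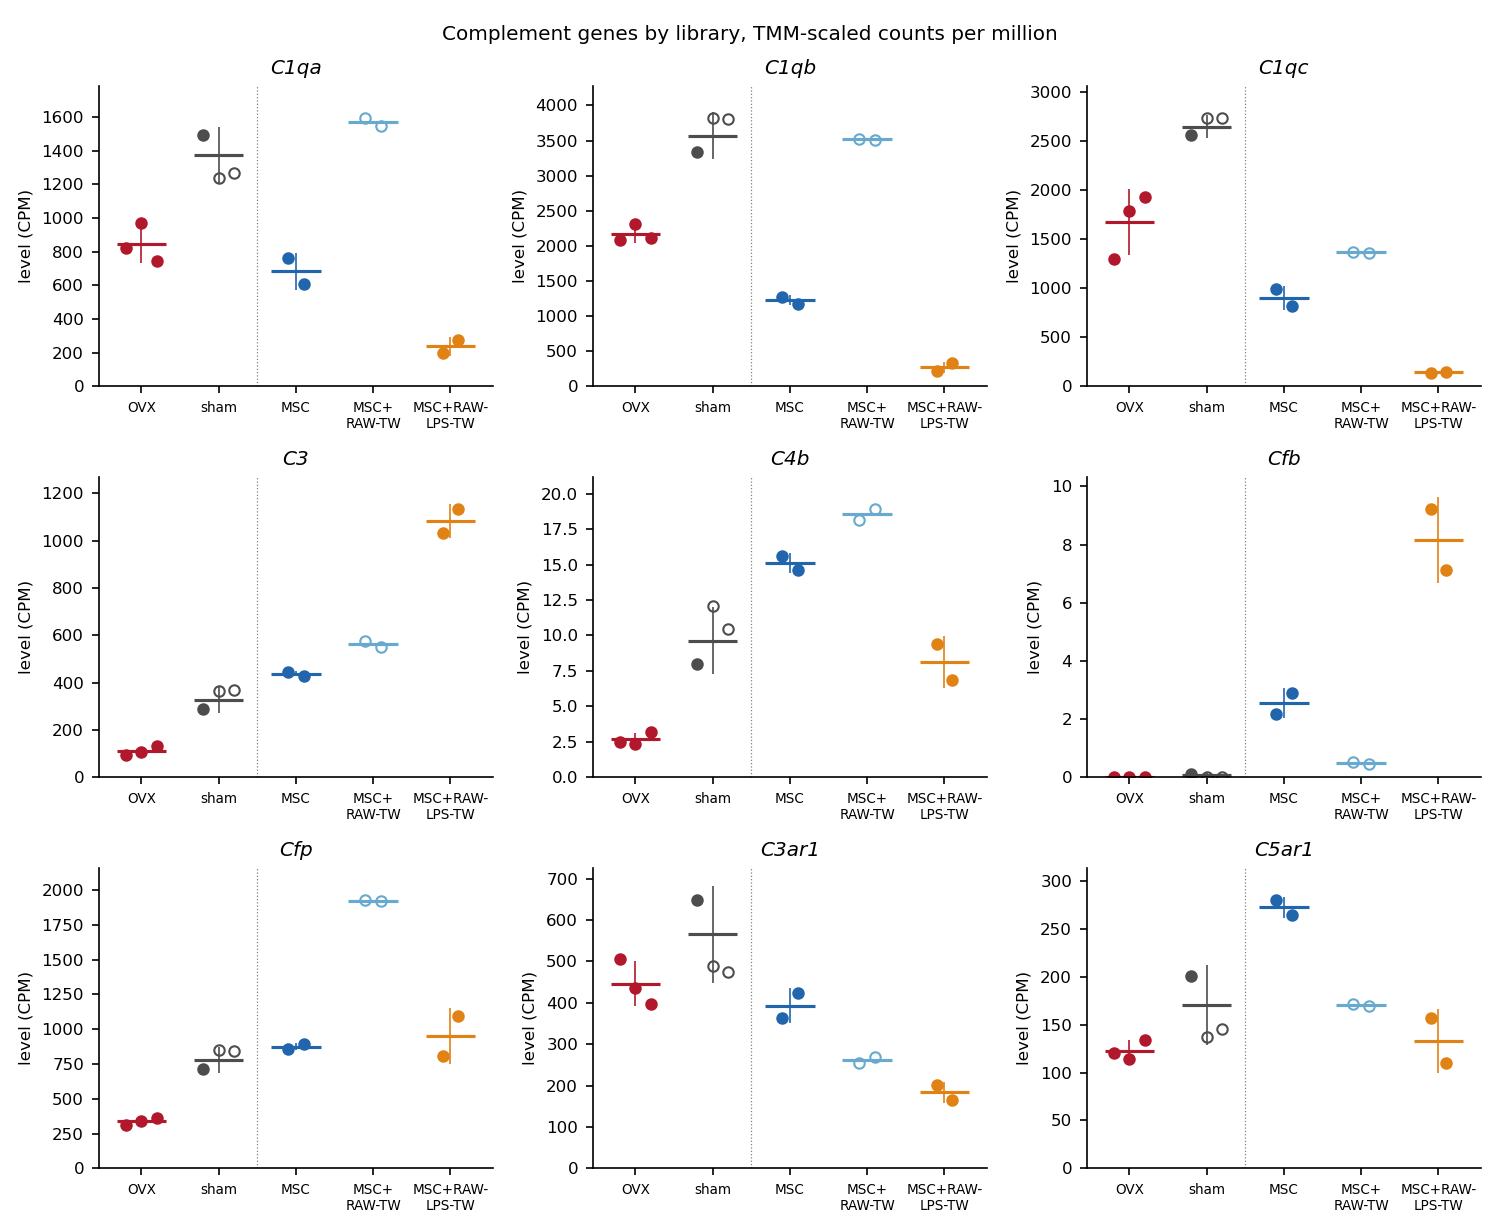
Levels of the 9 complement genes in each library, as TMM-scaled CPM on axes that start at 0. Points are libraries, open points belong to a pair counted as 1 sample, horizontal bars are group means and vertical bars the SD over samples (no SD for MSC+RAW-TW, n = 1), and the dotted line separates the experiments. Open MSC+RAW-TW points of C1qb and Cfp lie above the other MSC groups, and MSC+RAW-LPS-TW is highest for C3 and Cfb.

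C1q is a product of macrophages, and the labels of the MSC groups were therefore set against 12 macrophage markers. All 12 had a mean of at least 1 CPM in every group, MSCs included. Lyz2, the macrophage lysozyme, was at 21610 to 21700 CPM in MSCs cultured alone, Csf1r, the M-CSF receptor, at 1061 to 1161 and Cd68 at 550.4 to 580.1. Of 12 stromal markers, 10 reached 1 CPM in these cells, with Col1a1, a collagen of bone, at 453.8 to 459.5 CPM, while Thy1 was at 0.294 to 0.449. BMM libraries, labelled as macrophages, held more of most stromal genes. All 12 reached 1 CPM there, Col1a1 was at 1905 to 2054 CPM and Thy1 at 52.7 to 69.2 CPM, while Pdgfrb was lower than in MSC, at 91.1 to 113.7 beside 157.3 to 160.8 CPM. Summed over the stromal list the level was 10640 to 11910 CPM in sham and 12140 to 13180 in OVX, beside 3855 to 3963 in MSC. Of the surface proteins that the study stained on MSCs, CD29, SCA-1, CD73 and CD44 served as positive and CD34 and CD45 as negative markers. Ptprc, which encodes CD45, the common antigen of leukocytes, was at 167.4 to 171.3 CPM in MSC, above 71.5 to 86.8 in sham and 105.4 to 158.7 in OVX. Itgb1, which encodes CD29, was at 785.0 to 961.0 CPM in MSC, 492.2 to 552.1 in sham and 848.8 to 958.6 in OVX. Cd34 was lower in MSC, at 5.28 to 5.54 CPM beside 8.49 to 10.68 in sham and 6.82 to 9.15 in OVX. For Nt5e (CD73) the values were 7.04 to 7.72, 2.18 to 3.33 and 5.96 to 9.45 CPM in the same order. For Cd44 they were 157.3 to 182.6, 124.0 to 160.2 and 135.4 to 159.4, and for Ly6a (SCA-1) 199.9 to 228.8, 346.3 to 366.6 and 158.2 to 180.4. The MSC libraries held RNA of macrophage genes at high level and the BMM libraries RNA of stromal genes, and the complement levels below are those of whole cultures. Summed over the macrophage list the level was 26710 to 26910 CPM in MSC, 32360 to 32840 in MSC+RAW-TW and 13890 to 14300 in MSC+RAW-LPS-TW. In BMMs it was 54550 to 58460 CPM in sham and 40180 to 44700 in OVX. Lyz2 made up most of each sum, which therefore mainly follows that gene. Alb, Apoa1 and Ttr, which mark hepatocytes, summed to at most 0.122 CPM in every library except 1 of MSC+RAW-TW, with 8.26 CPM. The other MSC+RAW-TW library, counted with it as 1 sample, had 0.0489 CPM, so the pair differed in these genes. In bulk libraries, fewer cells of a type and less RNA per cell cannot be told apart.

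To ask how BMM cultures differed after ovariectomy, OVX was compared with sham. Of the 8 complement genes that passed the filter on low counts, 3 fell in OVX, C3, C4b and Cfp, and the fitted values of the other 5 were below 0 without being called. Calls needed a 2-fold difference or more together with an adjusted p no higher than 0.05 (edgeR, Benjamini-Hochberg over all genes). Of all genes tested, 8.46% were called in this comparison, 5.39% higher and 3.08% lower in OVX. The median log2 fold change of the 8 genes was -0.72, beside -0.01 over all genes. Cfb did not pass the filter.

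C3 is the protein on which all pathways converge. Its level was 94.5, 105.2 and 131.3 CPM in the OVX replicates and 287.1, 364.9 and 369.6 CPM in the sham replicates, so that the groups did not overlap. It averaged 110.4 ± 18.9 CPM (SD, n = 3) against 327.2 ± 56.7 (SD, n = 2), a fall of 2.99-fold (log2 fold change -1.58 ± 0.21 SE, edgeR adjusted p = 0.0066). C4b, the C4 protein of the classical pathway, was at 2.47, 2.38 and 3.20 CPM in OVX and at 7.97, 12.1 and 10.5 CPM in sham. Every OVX library lay below every sham library, and the log2 fold change of C4b was -1.85 ± 0.27 (SE, edgeR adjusted p = 0.00798).

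C4b has a close paralog, C4a, and reads that match both could not be told apart. C4a was low, at 16 to 44 counts in the BMM libraries, beside 81 to 306 counts of C4b. C4b made up 85.4% to 92.3% of the counts of both genes in sham and 71.1% to 78.6% in OVX. The fitted change of C4a was -0.30 ± 0.45 on the log2 scale (edgeR adjusted p = 0.704).

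Cfp encodes properdin, which holds the alternative pathway convertase together. It stood at 313.7, 339.3 and 359.2 CPM in OVX and at 714.9, 849.3 and 846.4 CPM in sham, again without overlap. The fall was 2.33-fold (log2 fold change -1.22 ± 0.18 SE, edgeR adjusted p = 0.00798).

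The C1q chains differed by less than 2-fold and were not called. C1qb was at 2088, 2318 and 2111 CPM in OVX and at 3332, 3819 and 3805 CPM in sham. The log2 fold change was -0.73 ± 0.17 (SE), with an edgeR adjusted p of 0.0289. C1qa, at 746.8 to 971.2 CPM in OVX and 1234 to 1491 CPM in sham, differed by -0.71 ± 0.19 (SE, adjusted p = 0.0462). C1qc, at 1295 to 1935 CPM in OVX and 2566 to 2736 CPM in sham, differed by -0.68 ± 0.21 (SE, adjusted p = 0.07). The groups of libraries did not overlap for any chain. The share of all genes without overlap was not computed and a pair of sham libraries is near-identical, so no conclusion is drawn from this. The same limit holds for the lack of overlap in the genes above. The log2 fold changes of the chains were smaller once trends on the GC content and length of genes were removed from each library. They were then -0.26 for C1qa, -0.29 for C1qb and -0.26 for C1qc.

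The receptors C3ar1 and C5ar1, through which C3a and C5a act on leukocytes, were not called. C3ar1 was at 397.3, 436.8 and 504.8 CPM in OVX and 475.4, 489.5 and 648.1 CPM in sham, which overlap (log2 fold change -0.35 ± 0.21 SE, edgeR adjusted p = 0.289). Over the alternatives this value ran from -0.838 to -0.118, and from -0.446 to -0.118 with a library left out. C5ar1 was at 113.7, 120.4 and 134.5 CPM in OVX and 137.1, 145.1 and 200.4 CPM in sham. Its log2 fold change was -0.49 ± 0.20 (SE, adjusted p = 0.152). Both genes were highest in sham replicate 1 among the sham libraries.

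Without OVX replicate 2, only C3 among the complement genes was called, C4b having an adjusted p of 0.0561 and Cfp of 0.0573, with log2 fold changes of -1.76 and -1.22. With the GC and length trends removed, C3 (-1.31) and C4b (-1.48) were called and Cfp (-0.82) was not, and the split of all called genes turned from 903 higher and 516 lower to 220 higher and 370 lower. Library codes in the column headers fall into 2 series, with OVX and sham replicate 2 in one and the other 4 libraries in the other. Within these series the difference was -1.79 and -1.55 for C3, -2.31 and -1.68 for C4b and -1.32 and -1.21 for Cfp on the log2 scale. All 8 genes tested were lower in OVX in both series. The series hold the libraries of the main comparison, so this is no separate evidence, and the share over all genes was not computed. Of the 12 macrophage markers, 4 were called lower in OVX (Adgre1, Fcgr1, Spi1 and Aif1) and 2 higher (Mrc1 and Cx3cr1), with a median log2 fold change of -0.54. Of the 12 stromal markers 1 was called, higher in OVX, with a median of 0.09, and every OVX library had a higher stromal sum than every sham library. The part of both lists in the complement results was not tested.

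**Figure D2:**
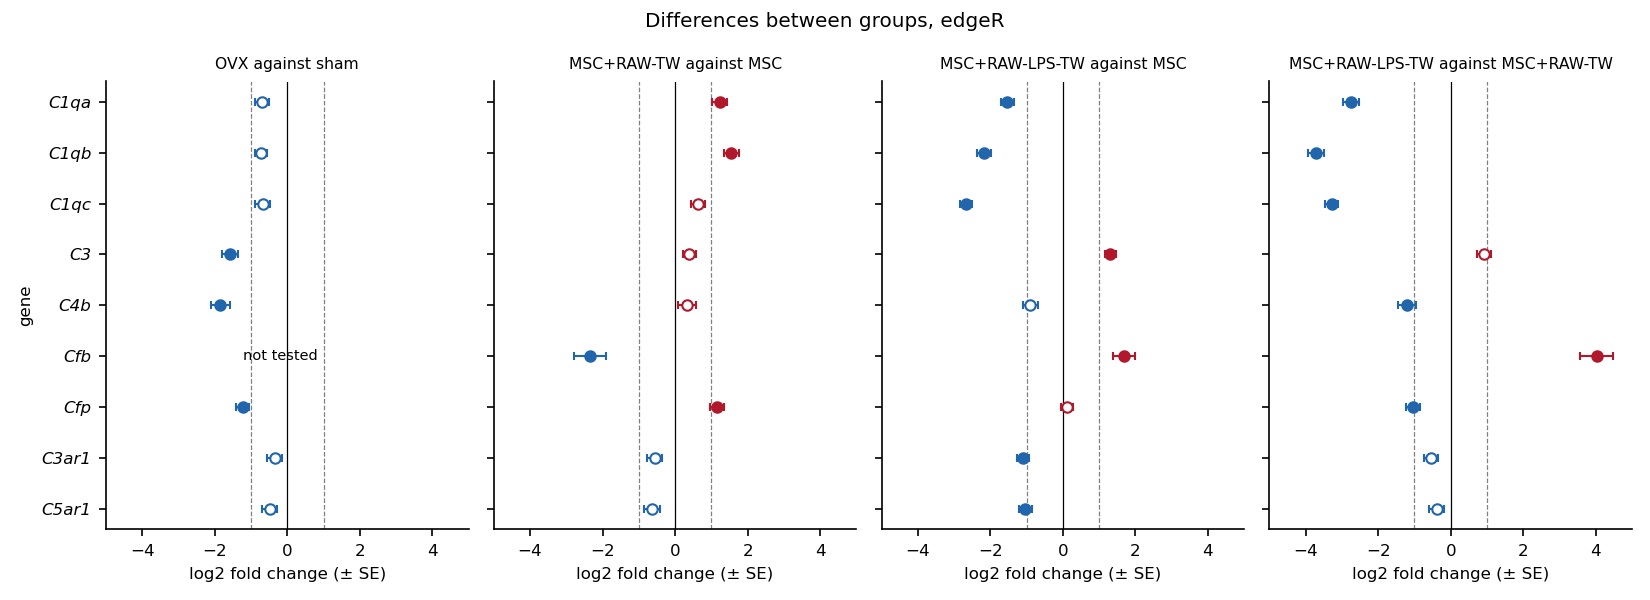
Log2 fold changes of the 9 complement genes with SE in the 4 comparisons (edgeR), with dashed lines at a fold change of 2. Filled points were called, open points were not, red is higher and blue lower in the group named first. In OVX every tested gene lies left of 0, and in MSC+RAW-LPS-TW against MSC the C1q chains lie left while C3 and Cfb lie right.

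In the MSC experiment, cells cultured with LPS-treated RAW264.7 cells held less C1q RNA and more C3 and Cfb RNA than MSCs cultured alone. Of the 9 genes, 7 were called, 2 higher and 5 lower, while 10.9% of all genes tested were called in this comparison (5.85% higher and 5.09% lower). The median log2 fold change was -1.04 for the 9 genes and -0.01 for all genes. Against MSC+RAW-TW, 6 of the 9 were called, 1 higher and 5 lower, while 27.4% of all genes were called (15.4% higher and 12.0% lower). MSC+RAW-TW itself differed from MSC at 4 of the 9 genes, 3 higher and 1 lower, beside 16.4% of all genes (6.80% higher and 9.59% lower). The 3 comparisons share their samples with each other. In those with MSC+RAW-TW the median over all genes was 0.14 and -0.13 on the log2 scale, so values relative to it are given for genes near the limit: C2, C3, C4a, C4b, Cfd, Cfp and Serping1.

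C1qb was at 1172 and 1273 CPM in MSC, 3514 and 3528 in MSC+RAW-TW and 218.2 and 326.9 CPM in MSC+RAW-LPS-TW. The groups were far apart compared with the libraries within them. From MSC+RAW-TW to MSC+RAW-LPS-TW the level fell 13.2-fold (log2 fold change -3.72 ± 0.22 SE, edgeR adjusted p = 7.7e-09). Against MSC the change was -2.17 ± 0.19 in MSC+RAW-LPS-TW (adjusted p = 4.75e-07) and 1.55 ± 0.22 in MSC+RAW-TW (adjusted p = 0.000262).

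C1qc was at 815.7 and 990.1 CPM in MSC, 1365 and 1367 in MSC+RAW-TW, and 136.9 and 148.7 in MSC+RAW-LPS-TW. In MSC+RAW-LPS-TW it was 6.33-fold below MSC (log2 fold change -2.66 ± 0.17 SE, edgeR adjusted p = 1.03e-08) and 9.77-fold below MSC+RAW-TW (-3.29 ± 0.19, adjusted p = 5.44e-09). The value in MSC+RAW-TW was 0.63 ± 0.19 against MSC, under the 2-fold limit. Over the alternatives it ran from 0.079 to 0.77, and from 0.492 to 0.77 with a library left out. C1qa, at 606.6 and 761.2 CPM in MSC, was at 1545 and 1592 in MSC+RAW-TW and 197.6 and 277.5 in MSC+RAW-LPS-TW. Its change against MSC was -1.53 ± 0.19 with LPS-treated cells (adjusted p = 1.56e-05) and 1.23 ± 0.21 with untreated cells (adjusted p = 0.000904). The last value fell to 0.71 and was not called with GC and length trends removed, and C1qb then remained called at 1.13. Between the groups with RAW264.7 cells C1qa differed by -2.76 ± 0.21 (edgeR adjusted p = 1.6e-07).

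The balance of the C1q chains also differed between libraries. C1qa, C1qb and C1qc together were taken as 100% after division by exon length. In MSC the C chain held 20.3% and 21.2%, in both MSC+RAW-TW libraries 12.9% and 13.0%, and in MSC+RAW-LPS-TW 12.0% and 15.4%. The A chain held 41.2% and 41.4% in MSC+RAW-LPS-TW, above 27.4% to 30.3% in the other MSC libraries. In BMMs the ranges overlapped, with 19.6% to 23.4% of the A chain and 19.9% to 27.4% of the C chain in OVX, beside 19.4% to 24.6% and 22.8% to 23.2% in sham. No test was run on these shares.

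**Figure D3:**
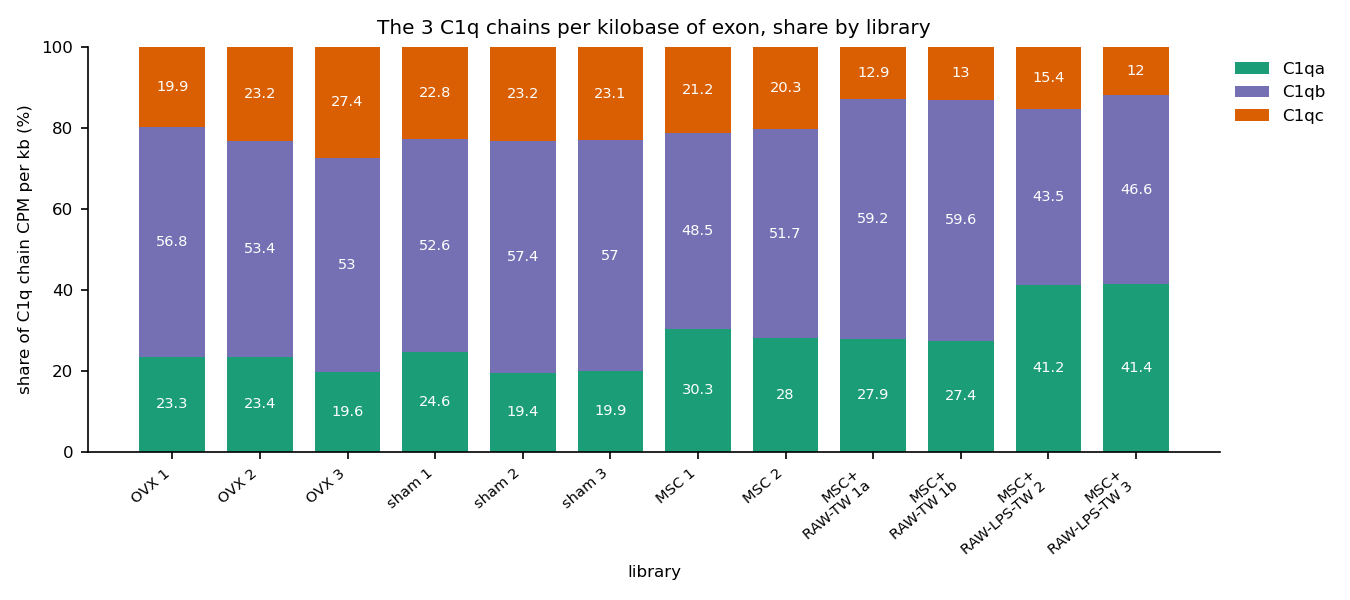
Share of each C1q chain in the summed CPM per kilobase of exon of C1qa, C1qb and C1qc, 1 bar for each library. The C1qa share is 41.2% and 41.4% in the MSC+RAW-LPS-TW libraries and at most 30.3% in all others.

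C3 went the other way from C1q. It was at 429.8 and 445.3 CPM in MSC, 550.3 and 576.3 in MSC+RAW-TW, and 1032 and 1133 CPM in MSC+RAW-LPS-TW. The rise against MSC was 2.47-fold (log2 fold change 1.30 ± 0.15 SE, edgeR adjusted p = 1.01e-05). Against MSC+RAW-TW it was 0.91 ± 0.19, below the limit of 2-fold (adjusted p = 0.00137, 0.77 relative to all genes), and passed the limit at 1.17 with GC and length trends removed. MSC+RAW-TW differed from MSC by 0.40 ± 0.18 (adjusted p = 0.112).

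Cfb encodes factor B, the protease of the alternative pathway convertase. It gave 107 and 99 counts in MSC, 21 and 16 in MSC+RAW-TW and 307 and 223 in MSC+RAW-LPS-TW, which are 2.19 and 2.91, 0.514 and 0.460, and 9.22 and 7.11 CPM. No group overlapped another. The rise in MSC+RAW-LPS-TW was 3.21-fold against MSC (log2 fold change 1.68 ± 0.31 SE, edgeR adjusted p = 0.000799) and 16.3-fold against MSC+RAW-TW (4.02 ± 0.46, adjusted p = 8.16e-06). MSC+RAW-TW was lower than MSC by 5.06-fold (-2.34 ± 0.44, adjusted p = 0.00133). Of the exon bases of Cfb, 79.5% are also exon of Gm20547 on the same strand, a gene with 0 counts in all 12 libraries. The setting for reads that overlap 2 genes is not stated. As Gm20547 had no counts, reads on the shared bases were not counted for it. If they were dropped, the counts of Cfb come from its other exon bases and its level, also per kilobase, is too low. The level of Cfb and its place among the 9 genes are therefore uncertain.

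Cfp was called in both comparisons with MSC+RAW-TW and not between the other groups. It was at 858.4 and 891.5 CPM in MSC, 1918 and 1927 in MSC+RAW-TW, and 808.5 and 1094 in MSC+RAW-LPS-TW. The MSC+RAW-TW libraries lay above all others, by 1.16 ± 0.20 on the log2 scale against MSC (edgeR adjusted p = 0.000794, 1.30 relative to all genes). MSC+RAW-LPS-TW was lower than MSC+RAW-TW by -1.05 ± 0.20 (adjusted p = 0.000657, -1.18 relative to all genes). With GC and length trends removed these values were 0.70 and -0.58 and neither was called, and without MSC+RAW-LPS-TW replicate 2 the second was -0.84 and not called. Against MSC the MSC+RAW-LPS-TW libraries lay on both sides, with a log2 fold change of 0.12 ± 0.17 (adjusted p = 0.701) that turned to -0.11 without MSC+RAW-LPS-TW replicate 3.

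C4b was at 14.6 and 15.6 CPM in MSC, 18.2 and 18.9 in MSC+RAW-TW, and 6.83 and 9.43 in MSC+RAW-LPS-TW. It was called against MSC+RAW-TW, by -1.22 ± 0.25 on the log2 scale (edgeR adjusted p = 0.00119, -1.35 relative to all genes), but neither with GC and length trends removed (-0.84) nor without MSC+RAW-LPS-TW replicate 3 (-0.995). Against MSC it was -0.90 ± 0.22 (adjusted p = 0.00668), and past the limit at -1.17 without MSC+RAW-LPS-TW replicate 2. C4a was at 0.19 ± 0.26 in MSC+RAW-LPS-TW against MSC (adjusted p = 0.691). Against MSC+RAW-TW it was at -0.68 ± 0.31 (adjusted p = 0.0866, -0.82 relative to all genes), in the direction of C4b and not called. In MSC+RAW-TW against MSC it was at 0.87 ± 0.30 (adjusted p = 0.0425, 1.01 relative to all genes). C4b made up 56.8% and 66.0% of the counts of both genes in MSC+RAW-LPS-TW, 68.0% and 72.0% in MSC+RAW-TW and 77.3% and 77.6% in MSC.

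Both fragment receptors were called lower in MSC+RAW-LPS-TW when set against MSC, and neither was called in the other comparisons. C3ar1 was at 363.0 and 423.1 CPM in MSC, 255.4 and 268.1 in MSC+RAW-TW and 165.2 and 201.8 in MSC+RAW-LPS-TW. Its log2 fold change in MSC+RAW-LPS-TW against MSC was -1.10 ± 0.16 (SE, edgeR adjusted p = 0.000108). C5ar1 was at 264.9 and 280.1 CPM in MSC, 169.8 and 171.7 in MSC+RAW-TW and 109.6 and 156.8 in MSC+RAW-LPS-TW, with -1.04 ± 0.18 against MSC (adjusted p = 0.000408). Both calls sat close to the limit. C3ar1 was not called without MSC replicate 2 (-0.98) or MSC+RAW-LPS-TW replicate 3 (-0.96). C5ar1 was not called without MSC replicate 1 (-0.99) or MSC+RAW-LPS-TW replicate 3 (-0.80), or with GC and length trends removed (-0.94). Between MSC+RAW-LPS-TW and MSC+RAW-TW the values were -0.54 ± 0.19 for C3ar1, which passed the limit at -1.15 with the trends removed, and -0.39 ± 0.21 for C5ar1. In MSC+RAW-TW against MSC the values were -0.56 ± 0.20 and -0.65 ± 0.22, of which that of C3ar1 was 0.003 once GC and length trends were removed.

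Library codes of the MSC columns also fall into 2 series, each with 1 library of each group. Within both series, the signs of all 9 genes were equal between MSC+RAW-LPS-TW and MSC+RAW-TW and in MSC+RAW-TW against MSC. In MSC+RAW-LPS-TW against MSC they were equal for 8 genes, all but Cfp (0.30 and -0.09). For C1qb the values there were -1.84 and -2.54, for C3 1.40 and 1.21 and for Cfb 1.28 and 2.05. These are again the libraries of the main comparisons, and the share of all genes with equal signs was not computed.

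Macrophage markers also changed in this experiment, but not all of them in the direction of C1q. Against MSC, 6 of the 12 markers were called lower and 1 higher in MSC+RAW-LPS-TW, with a median of -0.87, and Lyz2 was at 9156 to 10020 CPM. Mrc1, the mannose receptor, was at 3.99 to 4.02 CPM beside 583.9 to 593.4 in MSC, and Adgre1, which encodes F4/80, was higher at 1405 to 1536 CPM beside 511.7 to 584.2. Against MSC+RAW-TW, 6 were called lower and 2 higher. In MSC+RAW-TW against MSC, 2 were called higher, Spi1 and Aif1, and none lower. The median of the macrophage list was -1.16 in the first of these 2 comparisons and 0.23 in the second. Adgre1 (2.11) and Cd14 (1.11) were the higher ones in the first, where Ptprc, outside the list, was at 1.22. The stromal list had 3 called higher and none lower in MSC+RAW-LPS-TW against MSC, with a median of 0.41. Against MSC+RAW-TW, 6 were called higher and 1 lower (median 0.97), and in MSC+RAW-TW against MSC 1 higher and 3 lower (median -0.49). Of 8 neutrophil markers 2 passed the filter and both were called higher in MSC+RAW-LPS-TW against MSC. S100a8 was at 341.1 to 516.9 CPM beside 10.95 to 15.82 in MSC, and Camp at 28.7 to 39.8 CPM beside 0.470 to 0.715, while Elane, Ltf and Retnlg were at 0 in all libraries of MSC+RAW-LPS-TW. The part of these lists in the complement results was not tested.

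A wider list of 52 complement genes holds the 9 genes and 43 others. Of the 43, 26 passed the filter in BMMs and 32 in the MSC experiment. In OVX against sham 4 of the 26 were called, each of them lower, beside 8.46% of all genes, with a median log2 fold change of -0.05. Without OVX replicate 2 none of these 4 was called (edgeR adjusted p from 0.0799 to 0.131). Without OVX replicate 1, OVX replicate 3, sham replicate 1 or sham replicate 3 the number was 1, 2, 2 and 3, with Cd55 called in each. Clu and Itgb2 were not called with GC and length trends removed, with all libraries kept apart, or with the replicate number or the library code as a block. Other genes were gained. The replicate block called 7 of 26 (C1rb, C2, Cd46, Cd55, Csmd1, Serping1 and Vsig4), and DESeq2 called 6, with C2 and Colec10 added to the 4. Cd46, Colec10 and Vsig4 were above 0 in the main fit, at 1.87, 1.925 and 1.96, and not called. Genes under 5 CPM here are named after their values were seen. Cd55, which dissociates convertases on the membrane, fell (-1.46 ± 0.29, edgeR adjusted p = 0.0185). Itgb2, the beta chain of the complement receptors CR3 and CR4, fell by -1.04 ± 0.19 (adjusted p = 0.0137). Clu, a fluid-phase inhibitor, fell as well (-1.03 ± 0.24, adjusted p = 0.0305). C1rb, the last of the 4, averaged under 5 CPM and is named after its values were seen (-1.28 ± 0.29, adjusted p = 0.0264). C2, which forms the convertase with C4 and lies next to Cfb, was at -1.05 ± 0.34 and not called (adjusted p = 0.0749). It was called in DESeq2, with all libraries kept apart, and when the replicate number was added to that as a block.

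In MSC+RAW-LPS-TW against MSC, 2 of the 32 were called higher and 4 lower, beside 10.9% of all genes, with a median of -0.295. Serping1, the C1 inhibitor, rose from 58.9 and 67.9 CPM to 141.0 and 157.4 CPM (1.23 ± 0.16, edgeR adjusted p = 2.31e-05), and Cd55 rose from 10.2 and 10.4 to 24.4 and 33.1 CPM (1.48 ± 0.20, adjusted p = 5.36e-05). Cd93, a membrane protein first described as a C1q receptor, fell from 654.5 and 717.0 to 145.1 and 156.3 CPM (-2.19 ± 0.16, adjusted p = 4.52e-08). The other 3, named after their values were seen, were Fcna, Colec10 and Vsig4, which averaged at most 5.02 CPM in any MSC group. Vsig4 was not called when any 1 of the MSC or MSC+RAW-LPS-TW libraries was left out, nor with GC and length trends removed, and Colec10 was not called without MSC replicate 2. Vsig4, a receptor for C3 fragments, gave 15 and 24 counts in MSC and 0 in both MSC+RAW-LPS-TW libraries.

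Against MSC+RAW-TW, 3 of the 32 were called higher in MSC+RAW-LPS-TW and 5 lower, beside 27.4% of all genes, with a median of -0.37. The share called was thus close to that of all genes. The higher ones were Cd55 (2.33 ± 0.27, edgeR adjusted p = 9.29e-06), Csmd1 (1.34 ± 0.29, adjusted p = 0.00169) and Itgam, the alpha chain of CR3 (1.21 ± 0.22, adjusted p = 0.00045). Among the lower ones were Cd93 (-1.96 ± 0.18) and Cfd, the protease factor D that activates factor B (-1.27 ± 0.30, adjusted p = 0.00354), and also C2, at 10.5 CPM on average beside 20.6 CPM (adjusted p = 0.00764). C2 lay at the limit, at -1.001 (-1.14 relative to all genes), and was not called without MSC+RAW-LPS-TW replicate 2 (-0.74), the second MSC+RAW-TW column (-0.917), MSC replicate 1 (-0.999) or MSC replicate 2 (-0.996). The same held with all libraries kept apart (-0.975), with the library code as a block (-0.996) and with only the 2 groups compared (-0.993). Without MSC+RAW-LPS-TW replicate 2 Cfd was not called either, and with GC and length trends removed neither gene was. In MSC+RAW-TW against MSC, 1 of the 32 was called, beside 16.4% of all genes, but 5 of 32 without MSC+RAW-LPS-TW replicate 2 and also without MSC+RAW-LPS-TW replicate 3, and 2 without MSC replicate 2 or either MSC+RAW-TW column. The one was C2, which was higher (1.34 ± 0.27, 1.48 relative to all genes, edgeR adjusted p = 0.00203) and was called without each library in turn. Serping1, at 0.95 (adjusted p = 0.00153), and Cfd, at 0.90 (adjusted p = 0.0369), were not called but were at 1.09 and 1.03 relative to all genes. Of the exon bases of C2, 46.9% are also exon of Gm20547 on the same strand or of Zbtb12 on the opposite strand, which had counts, so the level of C2 is uncertain as that of Cfb is. Of the 7 terminal pathway genes, which form the membrane attack complex, 1 passed the filter in BMMs and 2 in the MSC experiment, and none was called.

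**Figure D4:**
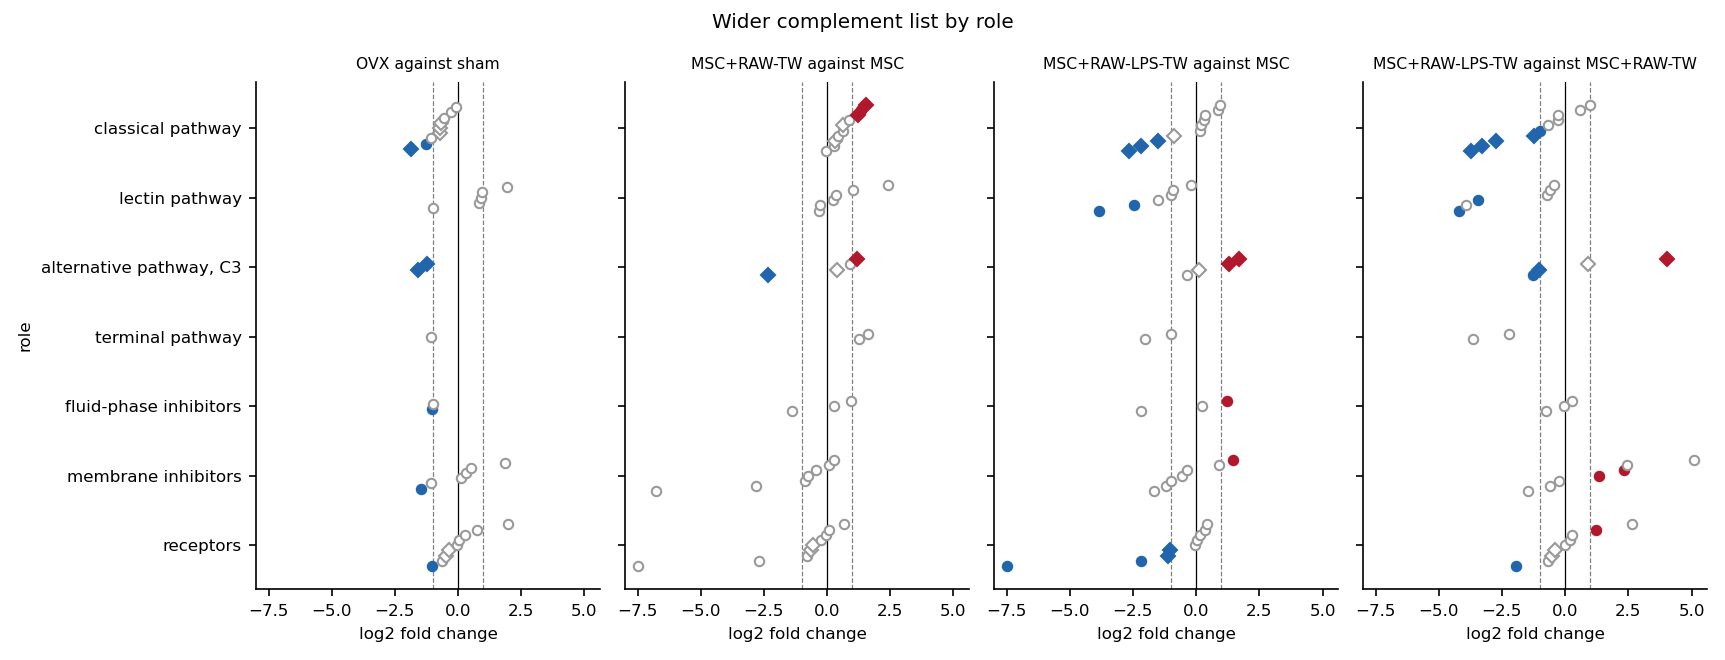
Log2 fold changes of those of the 52 complement genes that passed the filter, by role, in the 4 comparisons (edgeR). Diamonds are the 9 genes of the report and circles the others, filled red or blue points were called higher or lower, open points were not called, and dashed lines mark a fold change of 2. In the comparisons against MSC cultured alone, the points farthest left belong to genes without a count in 1 of the groups, whose fitted value is no measure of size.

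Genes with the closest pattern to each complement gene were looked for over the 10 samples of both experiments, among 16239 genes. The measure was the root mean square difference of log2 CPM, each gene being centred on its mean in the experiment. Nearest to C1qb were Tmem8 (0.172), Pld4 (0.178) and Snx8 (0.238), with C1qc 14th at 0.297. Nearest to C1qa was Cln6 (0.169), to C1qc Fam78a (0.136), to C3 Pik3r6 (0.130), to C4b Kcnab2 (0.172) and to Cfp Bcat2 (0.103). C3ar1 had Man1c1 nearest (0.0882) and C5ar1 in 14th place (0.156), and C5ar1 had Ddx28 nearest (0.127) and C3ar1 in 9th place. Among the complement genes, C3 was least like C1qc (1.44) and C1qb (1.42). These are descriptions over few samples, in which samples of a group move together. Cfb did not pass the filter in both experiments and was left out.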

How the data were processed

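RNA-seq was analysed in 6 BMM and 6 MSC libraries. According to the methods, the authors made poly(A) libraries with a directional kit, trimmed read pairs with Trim Galore 0.6.7, mapped them to GRCm38 with HISAT2 2.1.0 and counted them on genes with featureCounts 2.0.1. What was deposited are whole-number counts for each gene in each library, before any normalization or filter. The strand setting and the counting of pairs and of reads on more than 1 gene are not given in the sources used here. Gene names came from GENCODE M21, which named 55141 of 55487 identifiers. Even counts made up 60.0% to 71.4% of counts from 1 to 20, so counts are not independent molecules and intervals from counting would be too narrow.

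The 9 genes, the 52 complement genes, the markers and the tests were chosen with earlier results of these data known. Named genes are the 9 in every comparison. Others of the 52 are named where they were called with a mean of at least 5 CPM in the experiment, or are C2 or C4a, neighbours or paralogs of the 9. A gene of the planned list is not reported here.

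Counts were tested with edgeR 4.0.16 (R 4.3.3) per experiment: TMM, filterByExpr at its defaults, and the two-sided quasi-likelihood F-test, adjusted by Benjamini-Hochberg over all genes tested. SE is the log2 fold change divided by the square root of F. Near-identical libraries were summed and entered as 1 sample. Alternatives were DESeq2 1.42.0, RLE normalization, a filter at a mean CPM of 1 or none, all libraries kept apart, the replicate number as a block, no fold limit, removal of trends on GC content and length of the genes (lowess, span 0.3), each library left out, and only the 2 groups compared. The library code as a block was added after seeing the data. Log2 CPM used a prior count of 2. Replicate numbers of OVX and sham were not used as pairs in the main fit. The deviations of same-numbered samples correlated at 0.36, -0.01 and 0.31. This cannot settle whether the samples were paired, since differently numbered samples were not compared and sham replicates 2 and 3 were near-identical. Columns of the MSC groups carry fewer than 2 shared numbers. Promoters came from RefSeq windows on GRCm38.p6. Tables and figures were made with matplotlib 3.10.9, pandas 2.3.3 and numpy 2.4.6 in python 3.11.15.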

Additional observations from a re-analysis of the deposited data

How the results depend on the processing

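Over 490 recomputed values of single complement genes, 470 kept their direction and their side of the limits, 14 lost the call, 3 gained it and 3 changed sign. Sign changes were Cfp in MSC+RAW-LPS-TW against MSC (-0.111 without MSC+RAW-LPS-TW replicate 3, against 0.294 without MSC+RAW-LPS-TW replicate 2) and, with GC and length trends removed, C4b (-0.041) and C3ar1 (0.003) in MSC+RAW-TW against MSC. None of these 3 had been called, and the cause was not tested. With no fold limit, 5 of 8 genes passed in OVX against sham in place of 3, and 7 of 9 in MSC+RAW-TW against MSC in place of 4. With GC and length trends removed, 2 passed in each of these comparisons. Leaving out 1 library gave 1 to 3 genes in OVX against sham, with 1 without OVX replicate 2. In MSC+RAW-LPS-TW against MSC it gave 5 to 8, against MSC+RAW-TW 5 to 6, and in MSC+RAW-TW against MSC 4 throughout. The replicate block with all libraries kept apart gave 3 genes in OVX against sham and changed no call of the 9 genes. Columns of the MSC groups share fewer than 2 replicate numbers, so only the library code could be used as a block there. It gave 7, 6 and 4 of the 9 genes in the 3 comparisons and changed no call of the 9.

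Over all genes in OVX against sham, 1419 were called, 2193 with no fold limit, 590 with GC and length trends removed, 1818 with all libraries kept apart, 2117 with the replicate block added to that, 678 without OVX replicate 1, 309 without OVX replicate 2 and 2390 without sham replicate 1. In MSC+RAW-LPS-TW against MSC no fold limit gave 4286 in place of 2243. In MSC+RAW-TW against MSC it gave 5862 in place of 3360, and removal of the trends gave 2165, with 1128 higher and 1037 lower in place of 1394 and 1966. Of the wider list of 52 genes, 7, 13, 14 and 5 were called in OVX against sham, MSC+RAW-LPS-TW against MSC, between MSC+RAW-LPS-TW and MSC+RAW-TW, and in MSC+RAW-TW against MSC. The first was 1 without OVX replicate 2, 4 without OVX replicate 1, 12 with no fold limit and 4 with the trends removed. The last was 9 without either MSC+RAW-LPS-TW library or with only the 2 groups compared, 8 with all libraries kept apart (also with the library code block), 16 with no fold limit and 3 with the trends removed. Of the others than the 9, 13 of 30 in place of 8 of 32 were called between MSC+RAW-LPS-TW and MSC+RAW-TW with all libraries kept apart. Of the 9 genes, Cfb at 0 to 307 counts a library and C4b at 81 to 764 had the fewest counts.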
